A study of Mus musculus with 14 samples.

Results

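The elastic fiber genes described here are 10 genes picked by name from a table of read counts per gene: elastin (Eln), fibrillin 1 (Fbn1), the microfibril-associated proteins Mfap2, Mfap4 and Mfap5, the fibulins Fbln1, Fbln2, Fbln5 and Efemp2 (fibulin 4), and Emilin1. They are 10 of 49315 genes in the table, and each of the 10 passed the filter on low counts that left 15292 genes for testing. Polyadenylated RNA from the left ventricle of wild-type (WT) mice and of HCN4F mice was sequenced 5 weeks after surgery. HCN4F mice carry a knock-in that exchanges a tyrosine for a phenylalanine in the pacemaker channel HCN4 and gives a gain of function. Male mice of 10 to 12 weeks underwent either transverse aortic constriction (TAC), which loads the left ventricle with pressure and was calibrated with a 27-G needle, or a Sham operation. Values come from 4 WT-Sham, 4 HCN4F-Sham, 2 WT-TAC (replicates 2 and 3) and 4 HCN4F-TAC libraries, which the study describes as biological replicates. The remaining WT-TAC samples were not analysed here.

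Elastic fibers give arteries, valves and the heart wall their recoil. Their core is crosslinked elastin, which is laid down on a scaffold of microfibrils built from fibrillins and decorated by microfibril-associated proteins. Fibulins and emilins sit between the core and the scaffold, and lysyl oxidases crosslink the elastin. In the heart these proteins come mostly from fibroblasts and vascular smooth muscle cells.

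A library held 22309914 to 35210939 reads on genes. Mitochondrial genes took 13.9% to 18.6% of the reads in HCN4F-TAC, 17.1% to 21.4% in HCN4F-Sham, 18.4% and 20.0% in WT-TAC and 19.6% to 23.1% in WT-Sham. The elastic fiber genes received between 32 reads (Mfap2) and 6429 reads (Fbln2) per library. Levels are given as CPM, read counts divided by the library size as adjusted with edgeR's TMM normalization. In the Sham groups the CPM of a gene varied between libraries with a coefficient of variation of 3.12% (Fbln2) to 17.1% (Mfap5) in WT and of 12.4% (Emilin1) to 32.9% (Eln) in HCN4F hearts, and in HCN4F-TAC it reached 45.6% (Mfap4). HCN4F-TAC replicate 3 was the lowest library of its group for 9 of the 10 genes and replicate 2 the highest for 8. Likewise HCN4F-Sham replicate 2 was the highest of its group for 9 genes and replicate 1 the lowest for 8. Because the tissue was sequenced in bulk, fewer cells of a type and less RNA per cell cannot be told apart.

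The ventricles were checked for their cell types with marker lists. None of 6 cardiomyocyte markers (among them Myh6, Tnnt2 and Ttn) was at 0 in any library. Summed atrial markers (Sln, Myl7, Myl4 and Bmp10) lay between 1.24 and 5.04 CPM, apart from HCN4F-TAC replicate 2 with 31.1 CPM, which is the library in which most elastic fiber genes were highest. The same library had the lowest mitochondrial share, 13.9%, and the highest summed red blood cell markers, 347 CPM against 67.9 to 210 CPM in the other libraries. HCN4F-Sham replicate 2 had the highest summed epicardial markers, 15.2 CPM against 4.62 to 10.9 CPM in the other libraries, and the highest sums of endothelial (1166 CPM) and fibroblast (1599 CPM) markers. HCN4F-Sham replicate 1 had the lowest sums of endothelial (626 CPM), fibroblast (1175 CPM) and red blood cell (67.9 CPM) markers. The part of these differences in the results was not tested.

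With the summed CPM of the 10 genes as a first view, the WT-Sham libraries lay between 419 and 461 and the HCN4F-Sham libraries between 385 and 504. The sums in WT-TAC were 452 and 527 CPM. In HCN4F-TAC they ran from 520 to 839 CPM, with 520 in replicate 3, 647 in replicate 1, 766 in replicate 4 and 839 in replicate 2. Every HCN4F-TAC library lay above every Sham library, whereas the range of the HCN4F-TAC group reached down into that of WT-TAC.

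**Figure D1:**
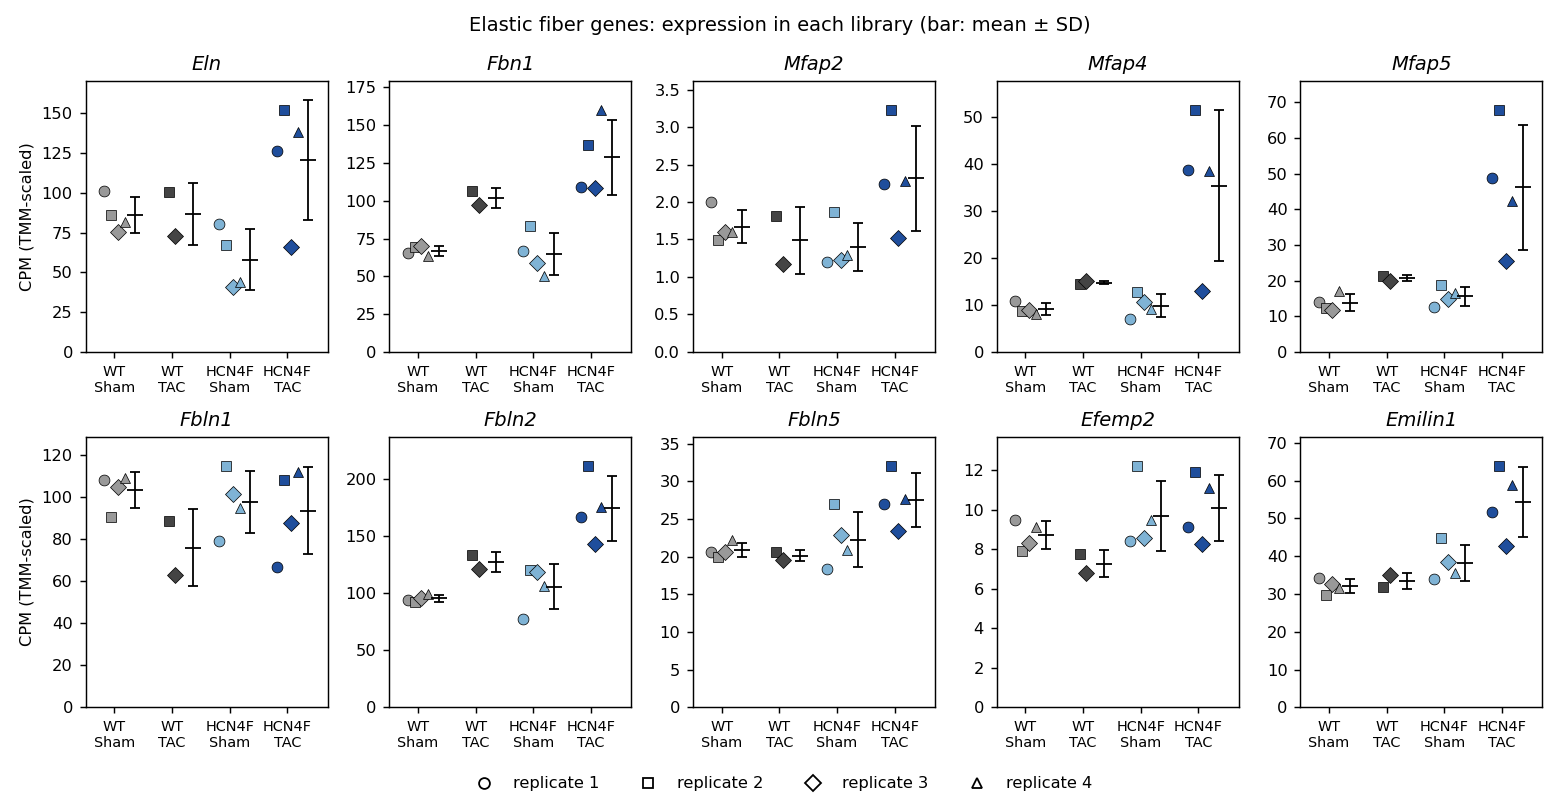
Level of each elastic fiber gene in each library, in CPM after TMM scaling, with one panel per gene and the groups along the x axis; symbols give the replicate number and the black bar the mean ± SD (n = 4, and n = 2 in WT-TAC). Mfap4 and Mfap5 reach 51.4 and 67.8 CPM in HCN4F-TAC replicate 2 and stay at 12.8 and 18.8 CPM or below in the HCN4F-Sham libraries, while Fbln1 and Efemp2 overlap between these groups.

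Levels of different genes were compared per length, as CPM per kb of the exons of a gene in GENCODE release 21 (assembly GRCm38). In WT-Sham hearts Fbln1 was highest at 23.7 ± 1.96 CPM per kb (SD, n = 4), followed by Fbln2 at 15.0 ± 0.467, Eln at 10.6 ± 1.38 and Emilin1 at 6.50 ± 0.373, with no overlap between neighbours. Fbn1 followed at 5.53 ± 0.273 CPM per kb. Fbn1 and Mfap4 (4.74 ± 0.646) overlapped, as did Mfap4 and Mfap5 (3.85 ± 0.659). Fbln5, Efemp2 and Mfap2 closed the order at 3.02, 2.30 and 1.38 CPM per kb. In HCN4F-TAC hearts Fbln2 came first at 27.4 ± 4.44 CPM per kb, ahead of Fbln1 (21.5 ± 4.77) and Mfap4 (18.4 ± 8.38), and each of the 6 neighbouring pairs from Fbln2 down to Fbn1 overlapped between libraries. By these means Mfap4 was at place 6 in WT-Sham and place 3 in HCN4F-TAC, and by library it was at place 2 or 3 in HCN4F-TAC replicates 1, 2 and 4 and at place 7 in replicate 3. Part of the order depended on the length used. With the longest protein-coding transcript of each gene in place of all exons, Eln stood at 22.3 CPM per kb in WT-Sham, above Fbln2 at 20.0, Mfap5 stood at 9.18 CPM per kb and place 4, and Mfap4 was at place 7 in WT-Sham and place 5 in HCN4F-TAC. Fbln1 in WT-Sham and Fbln2 in HCN4F-TAC stayed first by either length, and Fbln5, Efemp2 and Mfap2 stayed last.

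**Figure D2:**
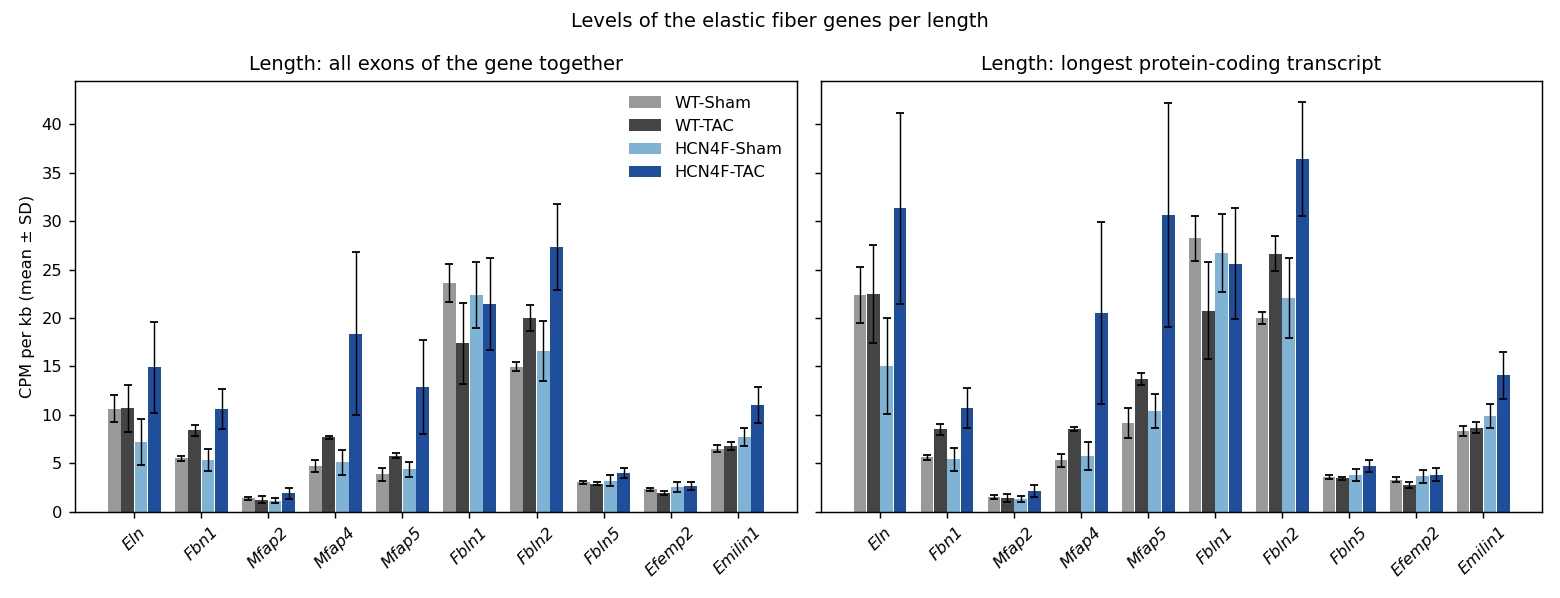
Mean level per length of each elastic fiber gene in CPM per kb (y axis, starting at 0) for the 4 groups, with SD as error bars (n = 4, and n = 2 in WT-TAC), computed with the length of all exons (left) and with the longest protein-coding transcript (right). By exon length Fbln1 leads in WT-Sham at 23.7 CPM per kb and Fbln2 in HCN4F-TAC at 27.4 CPM per kb.

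To ask how the elastic fiber genes responded to pressure overload in HCN4F hearts, HCN4F-TAC was compared with HCN4F-Sham. Of the 10 genes, 7 rose, with an adjusted p under 0.05 in edgeR's quasi-likelihood test (Benjamini-Hochberg, adjusted over every tested gene): Eln, Fbn1, Mfap2, Mfap4, Mfap5, Fbln2 and Emilin1. None fell. Among all tested genes 13.6% had such an adjusted p and 7.2% in the upward direction. Of the 7 genes, Eln, Mfap4 and Mfap5 also passed the threshold of the study, which asks in addition for a log2 fold change above 1 or below -1 and which 2.75% of all tested genes passed (1.58% in the upward direction). A gene that passed both is referred to as called in the following. The median log2 fold change was 0.73 over the elastic fiber genes and -0.01 over all tested genes. Leaving out HCN4F-TAC replicate 3 gave 8 genes by adjusted p and 4 called, and leaving out replicate 2 gave 5 and 2. The shares above are those of the fit with all libraries. Shares of all genes in the fits without a library are not given here, so these counts cannot be set against them. Fbn1, Mfap4, Mfap5, Fbln2 and Emilin1 kept an adjusted p under 0.05 in each of the 14 fits that left out one library.

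Elastin, the core protein, is encoded by Eln (ENSMUSG00000029675, chr5:134702593-134747323 on the minus strand of GRCm38). Its level was 80.4, 67.5, 40.5 and 43.9 CPM in HCN4F-Sham replicates 1 to 4, and 126, 152, 66.1 and 138 CPM in HCN4F-TAC replicates 1 to 4. HCN4F-TAC replicate 3 lay within the HCN4F-Sham range, and the other HCN4F-TAC libraries lay above it. The log2 fold change was 1.06 (standard error 0.27, edgeR adjusted p = 0.0231), a 2.08-fold higher level. This call was the least firm of the called genes. Without HCN4F-Sham replicate 3 or 4, or without HCN4F-TAC replicate 1, 2 or 4, the adjusted p of edgeR lay between 0.0524 and 0.0687, with log2 fold changes of 0.91 to 1.03. It was 0.0764 in edgeR when only the compared groups were fitted, which left Mfap4 and Mfap5 as the called genes, and 0.0523 without the filter on low counts.

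The scaffold of the microfibril is formed by fibrillin 1, the product of Fbn1 (ENSMUSG00000027204, chr2:125300594-125507993, minus strand). Fbn1 was at 66.8, 83.4, 58.7 and 50.3 CPM in HCN4F-Sham replicates 1 to 4 and at 109, 137, 109 and 160 CPM in HCN4F-TAC replicates 1 to 4. All HCN4F-TAC libraries lay above all HCN4F-Sham libraries. Its log2 fold change of 0.99 (standard error 0.14, edgeR adjusted p = 0.000453) was just under the threshold of 1, and it passed when HCN4F-Sham replicate 1 or 2 or HCN4F-TAC replicate 1 or 3 was left out, with 1.01 to 1.14. Without the filter on low counts, too, Fbn1 was called (edgeR adjusted p = 0.00131), so that Fbn1, Mfap4 and Mfap5 were the called genes there and Eln was not. Exons of the protein-coding gene Gm9913 on the other strand cover 20.1% of the exon bases of Fbn1. Gm9913 itself held 1 to 10 reads per library, and whether reads were counted by strand is not given in the sources used here.

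The largest differences were those of Mfap4 and Mfap5, which encode proteins bound to microfibrils. Mfap4 (ENSMUSG00000042436, chr11:61485431-61488900, plus strand) gave 6.89, 12.8, 10.6 and 9.03 CPM in HCN4F-Sham replicates 1 to 4, and 38.6, 51.4, 13.0 and 38.4 CPM in HCN4F-TAC replicates 1 to 4. The groups did not overlap, but HCN4F-TAC replicate 3 was barely above the highest HCN4F-Sham library. For Mfap4 the log2 fold change was 1.85 (standard error 0.34, edgeR adjusted p = 0.00454), or 3.61-fold, and ranged from 1.61 to 2.13 when single libraries were left out. A short stretch of its exons (4.63%) overlaps Mapk7 on the other strand, which held 177 to 299 reads per library.

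Mfap5 (ENSMUSG00000030116, chr6:122505845-122529290, plus strand) was at 12.5, 18.8, 14.9 and 16.4 CPM in HCN4F-Sham replicates 1 to 4 and at 48.8, 67.8, 25.6 and 42.3 CPM in HCN4F-TAC replicates 1 to 4. Here, too, every HCN4F-TAC library exceeded every HCN4F-Sham library. Its log2 fold change was 1.56 (standard error 0.24, edgeR adjusted p = 0.0015), a 2.95-fold difference, and lay between 1.31 and 1.76 in the fits that left out one library. Mfap4 and Mfap5 stayed called in each of the 14 fits that left out one library.

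Mfap2 (ENSMUSG00000060572, chr4:141010418-141015984, plus strand), another microfibril component that binds fibrillin, was the lowest of the elastic fiber genes. It was at 1.20, 1.87, 1.23 and 1.30 CPM in HCN4F-Sham replicates 1 to 4 and at 2.24, 3.23, 1.52 and 2.28 CPM in HCN4F-TAC replicates 1 to 4. HCN4F-Sham replicate 2 reached into the HCN4F-TAC range. The log2 fold change of 0.74 (standard error 0.23, edgeR adjusted p = 0.0419) kept an adjusted p under 0.05 in 5 of the 14 fits that left out one library, and not in fits of the compared groups alone with edgeR or DESeq2.

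Among the 4 fibulins of the set, which bridge elastin and microfibrils, Fbln2 rose in this comparison and Fbln1, Fbln5 and Efemp2 did not pass the test. Fbln2 (ENSMUSG00000064080, chr6:91212455-91272540, plus strand) was at 77.4, 120, 118 and 106 CPM in HCN4F-Sham replicates 1 to 4 and at 167, 212, 143 and 175 CPM in HCN4F-TAC replicates 1 to 4. The groups did not overlap, and the log2 fold change was 0.73 (standard error 0.13, edgeR adjusted p = 0.00154). Fbln5, which binds elastin and lysyl oxidase-like enzymes, had 20.9 to 26.9 CPM in 3 of the HCN4F-Sham libraries and 18.4 in the fourth, against 23.3 to 32.1 CPM in HCN4F-TAC. Its log2 fold change of 0.31 (95% confidence interval 0.08 to 0.54) missed the threshold with an edgeR adjusted p of 0.0657, and passed it in DESeq2 fitted on all groups. Fbln1 (log2 fold change -0.06, 95% confidence interval -0.39 to 0.28) and Efemp2 (0.07, -0.21 to 0.35) overlapped widely between the groups, so that a change of 1 on the log2 scale in either direction lay outside their intervals. Efemp2, which is required for lysyl oxidase to act on elastin, shares 4.57% of its exon bases with Mus81 on the other strand.

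Emilin1 (ENSMUSG00000029163, chr5:30913402-30921277, plus strand), a glycoprotein at the border of elastin and microfibrils, was at 34.0, 44.7, 38.4 and 35.5 CPM in HCN4F-Sham replicates 1 to 4. In HCN4F-TAC replicates 1 to 4 it was at 51.7, 63.9, 42.6 and 58.8 CPM, and only replicate 3 fell within the HCN4F-Sham range. The log2 fold change was 0.51 (standard error 0.11, edgeR adjusted p = 0.00593). In all, Fbn1, Mfap4, Mfap5 and Fbln2 showed no overlap with every HCN4F-TAC library higher, a pattern seen in 7.95% of all tested genes.

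**Figure D3:**
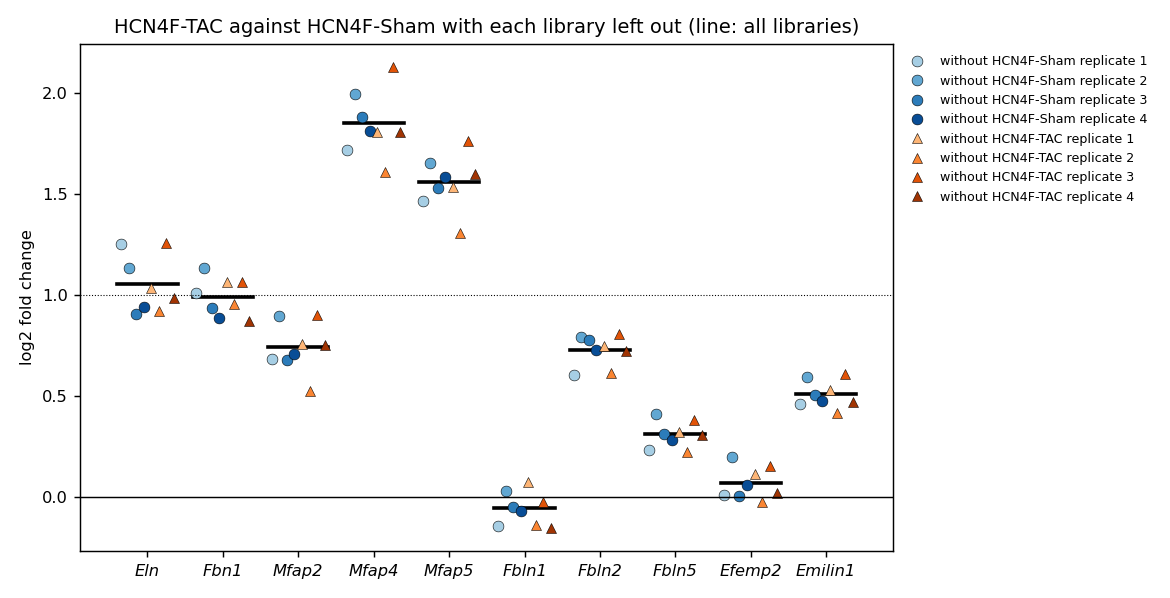
Log2 fold change of each elastic fiber gene between HCN4F-TAC and HCN4F-Sham when one library of these groups is left out (circles, HCN4F-Sham library left out; triangles, HCN4F-TAC library left out), with the value from all libraries as a black line and the dotted line at 1. Mfap4 (1.61 to 2.13) and Mfap5 (1.31 to 1.76) stay above 1, Eln (0.91 to 1.26) and Fbn1 (0.87 to 1.14) lie on both sides of it, and Fbln1 and Efemp2 lie around 0.

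The promoters of Fbn1, Fbln2 and Emilin1, genes that rose in HCN4F-TAC, are shown as examples of the sequence next to their starts. RefSeq promoters (assembly GRCm38.p6) were matched for 7 of the 10 genes by symbol, and those of Eln, Mfap4 and Mfap5 were not among them. The windows hold the 250 bases before the RefSeq start and are written from 5′ to 3′ on the strand of the gene. Those of Fbn1, Fbln2 and Emilin1 lie within the GENCODE gene spans given above, which begin further upstream. By that annotation they are not upstream of the gene. Capitals mark matches on either strand to the motifs searched: the TATA box TATAAA, the SP1-type GC box GGGCGG, the AP-1 motif TGANTCA, the TEAD motif GGAATG, the SMAD motif CAGAC and the CArG box of serum response factor. The Fbn1 window is chr2:125506439-125506688 (minus strand), that of Fbln2 is chr6:91212514-91212763 (plus strand) and that of Emilin1 is chr5:30913536-30913785 (plus strand).
Fbn1: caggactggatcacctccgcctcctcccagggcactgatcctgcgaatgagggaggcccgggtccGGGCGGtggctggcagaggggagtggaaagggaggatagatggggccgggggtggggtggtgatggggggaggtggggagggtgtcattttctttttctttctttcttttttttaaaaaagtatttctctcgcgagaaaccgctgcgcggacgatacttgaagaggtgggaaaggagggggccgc
Fbln2: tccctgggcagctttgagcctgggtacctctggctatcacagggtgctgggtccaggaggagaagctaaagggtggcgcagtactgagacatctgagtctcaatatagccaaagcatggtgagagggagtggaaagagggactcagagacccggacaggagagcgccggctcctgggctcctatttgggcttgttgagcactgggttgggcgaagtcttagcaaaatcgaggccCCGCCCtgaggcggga
Emilin1: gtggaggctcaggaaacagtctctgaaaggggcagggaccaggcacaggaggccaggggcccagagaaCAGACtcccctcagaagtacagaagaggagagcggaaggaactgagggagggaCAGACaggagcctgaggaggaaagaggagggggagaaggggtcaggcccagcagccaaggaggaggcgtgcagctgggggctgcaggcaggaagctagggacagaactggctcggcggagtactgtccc
The GC box was found once in the Fbn1 window, starting 185 bases before the start, and once in the Fbln2 window, on the opposite strand 16 bases before the start, whereas 32.7% of the 32851 mouse promoter windows of this length hold it. CAGAC was found in the Emilin1 window alone of these 3, at 182 and 129 bases before the start, and 42.2% of all promoter windows hold it. The TATA box, the AP-1 motif, the TEAD motif and the CArG box had no match in the 3 windows. Mfap2, which also rose by adjusted p but is not shown, holds GGGCGG at one RefSeq start and GGAATG and CAGAC at another. GGGCGG and CAGAC were also found in windows of Fbln1, Fbln5 and Efemp2, which did not pass the test. Across all promoter windows TATAAA was found in 12.4%, TGANTCA in 6.75%, GGAATG in 12.6% and the CArG box in 1.47%. The windows have a GC content of 59.2% (Fbn1), 58.8% (Fbln2) and 63.2% (Emilin1).

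To ask for the response in WT hearts, WT-TAC was compared with WT-Sham. In the edgeR fit of all groups none of the 10 genes was called in WT hearts, where 0.706% of all tested genes were called, and none had an adjusted p under 0.05 (4.54% of all tested genes). At an unadjusted p under 0.05 there were 3 genes, against 22% of all tested genes. The adjusted p depended on the fit. With edgeR on the WT groups alone it was 0.000747 for Fbn1, 0.00351 for Fbln2, 0.00536 for Mfap4 and 0.0173 for Mfap5, so that 4 genes were under 0.05 (13.6% of all genes in that fit). With edgeR on all groups scaled by the size factors of DESeq2 it was 0.0492 for Fbn1 and at least 0.05 for the other 9 genes (4.77% of all genes were under it). With DESeq2 it was under 0.05 for Fbn1 in the fit of all groups (9.48% of all genes) and for 5 genes (Fbn1, Mfap4, Mfap5, Fbln1 and Fbln2) in the fit of the WT groups (16% of all genes). No gene was called in any of these fits, since none changed by more than 1 on the log2 scale. The median log2 fold change was 0.03 over the elastic fiber genes and -0.02 over all genes. Since the WT comparison has n = 2 against n = 4, its intervals are wider than those in HCN4F hearts and its number of calls is not directly comparable.

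Fbn1 had the lowest adjusted p. It was at 65.2, 69.7, 70.0 and 63.3 CPM in WT-Sham replicates 1 to 4 and at 107 and 97.3 CPM in WT-TAC replicates 2 and 3, without overlap. The log2 fold change was 0.60 (95% confidence interval 0.24 to 0.97, edgeR adjusted p = 0.0549). The adjusted p of Fbn1 was under 0.05 in 4 of the 14 edgeR fits that left out one library, those without HCN4F-Sham replicate 2 or 4 or HCN4F-TAC replicate 3 or 4 (0.0222 to 0.0481). Fbln2, too, was higher in both WT-TAC libraries (134 and 121 CPM) than in WT-Sham (92.3 to 99.4 CPM), with a log2 fold change of 0.42 (edgeR adjusted p = 0.121, and 0.0436 without HCN4F-Sham replicate 1).

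Mfap4 and Mfap5 had the same order of libraries. Mfap4 was at 14.5 and 15.0 CPM in WT-TAC against 8.07 to 10.9 CPM in WT-Sham, and Mfap5 at 21.3 and 20.0 CPM against 11.9 to 17.1 CPM. Their log2 fold changes were 0.69 (95% confidence interval -0.20 to 1.59) and 0.58 (-0.06 to 1.21). Every WT-TAC library was higher than every WT-Sham library for these 4 genes, which was the case for 19.2% of all tested genes. In the opposite direction, both WT-TAC libraries lay below WT-Sham for Fbln1 and Efemp2, as for 20% of all tested genes. Fbln1 was at 88.9 and 63.0 CPM in WT-TAC and at 90.8 to 109 CPM in WT-Sham (log2 fold change -0.45, 95% confidence interval -0.86 to -0.03, edgeR adjusted p = 0.199).

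Eln showed no common direction in WT hearts. It was at 101, 85.8, 75.2 and 81.9 CPM in WT-Sham replicates 1 to 4 and at 100 and 72.8 CPM in WT-TAC replicates 2 and 3. The WT-TAC libraries lay on either side of the WT-Sham mean, and the log2 fold change of 0.01 had a 95% confidence interval from -0.71 to 0.72. Its sign changed when a library was left out, to -0.24 without WT-TAC replicate 2, -0.05 without WT-Sham replicate 3 and -0.02 without WT-Sham replicate 4. Emilin1 (log2 fold change 0.06), Fbln5 (-0.05) and Mfap2 (-0.19) also overlapped between the WT groups, and Mfap2 and Emilin1 changed sign without WT-TAC replicate 3 (0.11 and -0.0040).

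**Figure D4:**
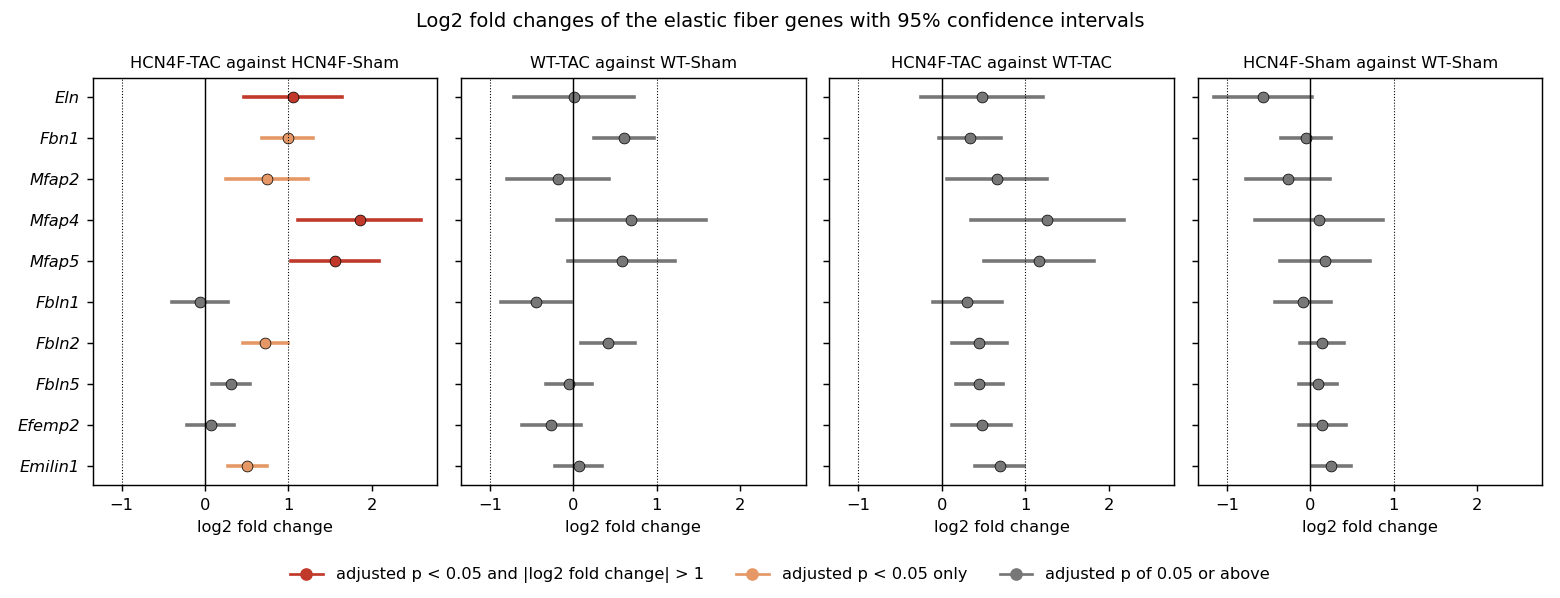
Log2 fold change (x axis) of each elastic fiber gene with its 95% confidence interval in 4 comparisons from one edgeR model, colored by whether the gene passed the adjusted p and the fold change threshold (dotted lines at -1 and 1). Mfap4, Mfap5 and Eln are called in HCN4F-TAC against HCN4F-Sham, with 1.85, 1.56 and 1.06, and no gene reaches an adjusted p under 0.05 in the other 3 comparisons.

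To compare the genotypes after TAC, HCN4F-TAC was set against WT-TAC, a comparison that shares its libraries with both TAC responses. All 10 genes had a positive log2 fold change, with a median of 0.48 against 0.00 over all genes, but none was called by edgeR (0.0719% of all tested genes were) and none had an adjusted p under 0.05 (0.111%). At an unadjusted p under 0.05 there were 7 of the 10 genes, against 12.5% of all tested genes. DESeq2 fitted on all groups called Mfap5 and gave an adjusted p under 0.05 for Mfap5 and Emilin1 (1.49% of all genes by adjusted p alone). The share of all genes called in that fit is not given here. DESeq2 on the compared groups called none and gave one for Emilin1 (1.23% of all genes). In 6 genes (Fbn1, Mfap5, Fbln2, Fbln5, Efemp2 and Emilin1) every HCN4F-TAC library was higher than both WT-TAC libraries, as in 11.3% of all tested genes.

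The lowest adjusted p was that of Emilin1, with 32.0 and 34.9 CPM in WT-TAC replicates 2 and 3 and 42.6 to 63.9 CPM in HCN4F-TAC. Its log2 fold change was 0.70 (95% confidence interval 0.40 to 0.99, edgeR adjusted p = 0.0728). The adjusted p of Emilin1 was 0.00169 with DESeq2 on all groups, 0.0061 with DESeq2 on the compared groups and 0.00105 with edgeR without the filter on low counts (0.49% of all genes passed there), but 0.357 with edgeR on the compared groups. Of the 14 edgeR fits that left out one library it was under 0.05 in 2, at 0.00178 when HCN4F-TAC replicate 3 was left out and at 0.0463 when this was HCN4F-Sham replicate 2. In none of these fits was Emilin1 called. Mfap5, with 21.3 and 20.0 CPM in WT-TAC, had a log2 fold change of 1.16 (0.50 to 1.82, edgeR adjusted p = 0.162). Mfap4, with 14.5 and 15.0 CPM in WT-TAC, had the largest difference, 1.26 (0.34 to 2.18, edgeR adjusted p = 0.252), although HCN4F-TAC replicate 3, at 13.0 CPM, was lower than both WT-TAC libraries. Without that library Mfap4 and Mfap5 were called, with log2 fold changes of 1.54 and 1.36 and edgeR adjusted p-values of 0.00104 and 0.00329. Fbln5 then had an edgeR adjusted p of 0.0388 with a log2 fold change of 0.52. HCN4F-TAC replicate 3 was the lowest of its group for 9 elastic fiber genes. The share of all genes that passed in the fit without it is not given here. For Eln (0.48, -0.25 to 1.21) and Fbln1 (0.31, -0.11 to 0.72) the groups overlapped.

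The genotypes were also compared in Sham hearts. None of the elastic fiber genes was called between HCN4F-Sham and WT-Sham, where 0.209% of all tested genes were called. None had an adjusted p under 0.05 in edgeR (0.471% of all tested genes). None did in DESeq2 either, where 2.68% of all genes passed in the fit of all groups and 3.02% in that of the compared groups. Only Emilin1 had an unadjusted p under 0.05 (15.2% of all tested genes had one), with a log2 fold change of 0.25 (95% confidence interval 0.02 to 0.48, edgeR adjusted p = 0.297). The largest difference was that of Eln, which averaged 58.1 ± 19.1 CPM in HCN4F-Sham and 86.1 ± 11.1 CPM in WT-Sham (SD, n = 4 each). HCN4F-Sham replicates 2, 3 and 4 lay below all WT-Sham libraries, whereas replicate 1, at 80.4 CPM, lay among them (log2 fold change -0.57, 95% confidence interval -1.16 to 0.02, edgeR adjusted p = 0.343), so that a difference of 1 on the log2 scale lies within the interval. The median log2 fold change over the 10 genes was 0.10.

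Whether the response to TAC differed between the genotypes was tested with the interaction of genotype and surgery. No elastic fiber gene had an adjusted p under 0.05 in edgeR (0% of all tested genes), nor did any in DESeq2 on all groups (0.325% of all genes). At an unadjusted p under 0.05 there were 5 of the 10 genes (Eln, Mfap2, Mfap5, Fbln5 and Emilin1), against 9.27% of all tested genes. The estimate was positive for all 10 genes, with a median of 0.42. For Eln it was 1.05 (95% confidence interval 0.11 to 1.99, edgeR adjusted p = 0.494). For Mfap4 it was 1.16 (-0.02 to 2.34, edgeR adjusted p = 0.539), and without HCN4F-TAC replicate 3 it was 1.44 with an edgeR adjusted p of 0.031. The share of all genes that passed in the fit without this library is not given here. For Fbn1 the interaction estimate was 0.39 (-0.09 to 0.87).

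The genes that assemble and crosslink elastic fibers were taken from a further list of 23 genes, of which 22 could be tested. In HCN4F-TAC against HCN4F-Sham 10 of them rose and 3 fell by adjusted p, and of these 5 were called higher and 1 lower. Over all tested genes 7.2% rose and 6.41% fell by adjusted p, and 1.58% were called higher and 1.16% lower. When each HCN4F library was left out in turn, 8 to 10 of the 22 rose, 2 or 3 fell, 5 to 7 were called higher and 1 lower. The median log2 fold change of the list was 0.37, against -0.01 over all genes. The latent TGF-beta binding protein Ltbp2, which binds fibrillin microfibrils, averaged 4.83 ± 1.60 CPM in HCN4F-Sham and 37.8 ± 21.0 CPM in HCN4F-TAC (SD, n = 4 each), and the log2 fold change was 2.97 (SE 0.43, edgeR adjusted p = 0.00139). Its lowest HCN4F-TAC library, replicate 3, held 12.1 CPM, its highest, replicate 2, held 56.1 CPM, and its highest HCN4F-Sham library held 6.34 CPM. In the fits without one HCN4F library the log2 fold change of Ltbp2 lay between 2.71 and 3.27, and it was called in all 8. Adamtsl2, a microfibril-bound protein, went from 13.2 ± 3.18 to 52.1 ± 18.9 CPM (log2 fold change 1.99, standard error 0.25). The crosslinking enzymes Lox and Loxl2 went from 5.68 ± 0.546 to 13.0 ± 3.69 CPM and from 14.2 ± 2.51 to 30.4 ± 6.97 CPM, with log2 fold changes of 1.20 and 1.11. Fbln7, at 0.330 ± 0.101 CPM in HCN4F-Sham one of the lowest of the list, had a log2 fold change of 1.56. Adamtsl2, Lox and Fbln7 were called in each of these 8 fits, and Loxl2 in 7, with a log2 fold change of 0.997 without HCN4F-TAC replicate 1.

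One fibulin moved the other way. Efemp1 (fibulin 3) averaged 5.84 ± 0.834 CPM in HCN4F-Sham and 1.69 ± 0.452 CPM in HCN4F-TAC, without overlap (log2 fold change -1.79, standard error 0.21, edgeR adjusted p = 6.95e-05). In WT hearts it averaged 4.53 ± 0.525 CPM after Sham surgery and was at 1.60 and 3.20 CPM after TAC (log2 fold change -0.95, edgeR adjusted p = 0.0475), so that it fell in both genotypes by adjusted p. The WT value is close to 0.05 and rests on 2 WT-TAC libraries, and no fit without a WT library is given for Efemp1. In WT hearts none of the 22 genes was called, where 0.706% of all tested genes were. Besides Efemp1 only Adamtsl5 passed the adjusted p (log2 fold change 0.39, edgeR adjusted p = 0.0461), also close to 0.05. Among all tested genes 4.54% passed it. For Ltbp2 the log2 fold change in WT hearts was 1.29 (standard error 0.54, edgeR adjusted p = 0.19). None of the 22 genes was called or had an adjusted p under 0.05 between the genotypes, in Sham or in TAC hearts. Among all tested genes 0.209% were called in Sham and 0.0719% in TAC hearts, and 0.471% and 0.111% had such an adjusted p.

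**Figure D5:**
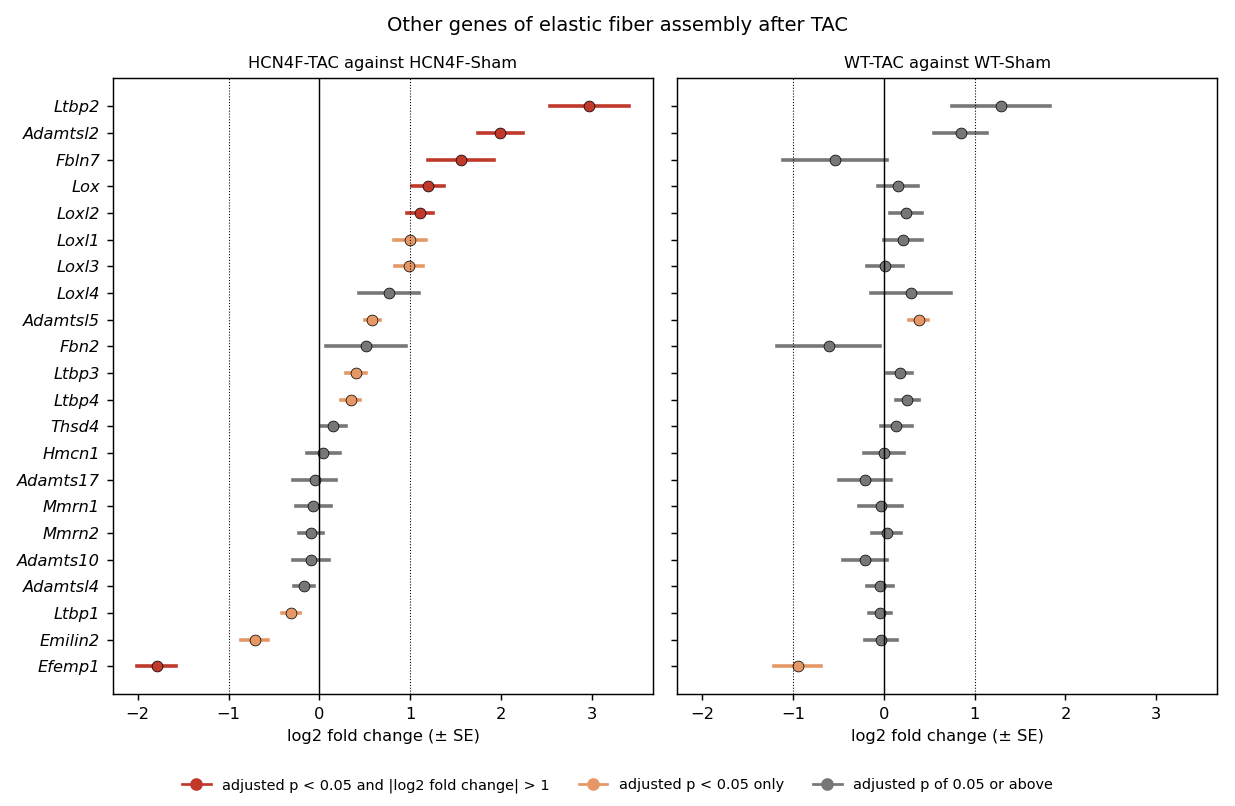
Log2 fold change (x axis, point) ± standard error (line) of the 22 tested genes of elastic fiber assembly in HCN4F-TAC against HCN4F-Sham (left) and WT-TAC against WT-Sham (right), ordered by the left panel and colored by the adjusted p and the fold change threshold of 1. Ltbp2 lies at 2.97 and Efemp1 at -1.79 in HCN4F hearts, and at 1.29 and -0.95 in WT hearts.

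Of the proteases that can degrade elastin, 6 of 7 listed genes could be tested and none was called after TAC in either genotype. By adjusted p, 2 of them rose in HCN4F hearts, the gelatinase gene Mmp2 (log2 fold change 0.53) and the cathepsin gene Ctsk (0.80), and none did in WT hearts. These adjusted p-values were under 0.05 in 3 (Mmp2) and 2 (Ctsk) of the 8 fits without one HCN4F library, for both genes without HCN4F-Sham replicate 2 or HCN4F-TAC replicate 3, and for Mmp2 also without HCN4F-TAC replicate 1. Of 6 integrin genes whose products bind elastic fiber proteins, 5 rose by adjusted p in HCN4F-TAC against HCN4F-Sham and 3 in WT-TAC against WT-Sham, where 7.2% and 2.92% of all tested genes did. The HCN4F count was 3 to 5 when each HCN4F library was left out. Itga9 was the called one in HCN4F hearts, from 60.9 ± 8.68 to 131 ± 20.4 CPM (log2 fold change 1.10, called in each of the 8 fits), and in WT hearts it went from 65.3 ± 8.96 CPM to 109 and 119 CPM (0.81, edgeR adjusted p = 0.0104).

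Markers of the cells that make elastic fibers were given beside these results. A list of 6 fibroblast markers (Pdgfra, Tcf21, Dpt, Lamc1, Ddr2 and Gsn) summed to 1177 to 1400 CPM in HCN4F-TAC and 1175 to 1599 CPM in HCN4F-Sham, and to 1178 and 1409 CPM in WT-TAC and 1405 to 1522 CPM in WT-Sham. None of the 6 was called in either response. By adjusted p Lamc1 rose in HCN4F hearts (log2 fold change 0.32, edgeR adjusted p = 0.0246), and it did so in 5 of the 8 fits without one HCN4F library. In WT hearts Lamc1 rose (0.47, edgeR adjusted p = 0.0245) and Dpt fell (-0.47, edgeR adjusted p = 0.0253). Among all tested genes 13.6% passed the adjusted p in HCN4F hearts and 4.54% in WT hearts. Of 6 markers of activated fibroblasts, Postn, Comp, Cilp and Ltbp2 were called higher in HCN4F-TAC against HCN4F-Sham, as were 1.58% of all tested genes. They were also called in all 8 fits without one HCN4F library, and Acta2 was not called. Cthrc1, at 0.746, 0.955, 0.141 and 0.569 CPM in HCN4F-TAC replicates 1 to 4 and at 0.274 CPM or less in the other libraries, passed the filter on low counts through HCN4F-TAC alone, so that its call is not counted here. The summed level of the 6 genes was 308, 425, 200 and 400 CPM in HCN4F-TAC replicates 1 to 4, against 150 to 229 CPM in HCN4F-Sham, so that replicate 3 was again the lowest of its group and replicate 2 the highest. In WT-TAC this sum was 178 and 181 CPM, below the 194 to 244 CPM of WT-Sham, and no gene of the list was called. Acta2, which is also a vascular smooth muscle marker, makes up most of the sum outside HCN4F-TAC and was at 124 and 127 CPM in WT-TAC against 164 to 213 CPM in WT-Sham. Without Acta2 the order of the WT groups was the opposite, with 53.8 and 54.1 CPM in WT-TAC against 30.3 to 35.6 CPM in WT-Sham. In the same way the sum was 189, 356, 76.4 and 249 CPM in HCN4F-TAC replicates 1 to 4 against 28.3 to 41.7 CPM in HCN4F-Sham.

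Vascular smooth muscle markers (Myh11, Cnn1, Acta2, Tagln and Smtn) summed to 236 to 389 CPM in HCN4F-TAC and 305 to 496 CPM in HCN4F-Sham, and none of the 5 was called. In WT-TAC they summed to 329 and 342 CPM, below the 452 to 582 CPM of WT-Sham, and Smtn fell by adjusted p (log2 fold change -0.36, edgeR adjusted p = 0.0486). Cartilage and valve markers (Sox9, Cnmd, Chad, Col2a1 and Fmod) summed to 9.93 to 28.5 CPM in HCN4F-TAC against 4.18 to 7.31 CPM in HCN4F-Sham. Sox9 and Fmod were called higher and Cnmd lower, where 1.58% of all tested genes were called higher and 1.16% lower. Col2a1 was at 0 in every HCN4F-Sham library. Sox9 was called in all 8 fits without one HCN4F library, Fmod in 4 (without HCN4F-Sham replicate 2 or 4 or HCN4F-TAC replicate 1 or 3) and Cnmd in 3 (without HCN4F-Sham replicate 1 or 2 or HCN4F-TAC replicate 3). The sum was 3.35 and 4.11 CPM in WT-TAC and 4.66 to 6.73 CPM in WT-Sham, with Cnmd called lower (log2 fold change -2.21, edgeR adjusted p = 0.0359). Between HCN4F-TAC and WT-TAC Sox9 was called higher (1.51, edgeR adjusted p = 0.00138). The activated fibroblast list shares Ltbp2 with the assembly list. Cardiomyocyte markers (Myh6, Tnnt2, Tnni3, Actc1, Ttn and Myl2) summed to 51571 to 61407 CPM in HCN4F-TAC, below the 63391 to 70131 CPM of every HCN4F-Sham library, and to 65940 and 67545 CPM in WT-TAC, below the 73320 to 74959 CPM of WT-Sham. By the adjusted p 4 of the 6 fell in HCN4F-TAC against HCN4F-Sham (Myh6, Tnnt2, Tnni3 and Myl2) and Actc1 rose. The largest difference was that of Tnni3 (log2 fold change -0.59, edgeR adjusted p = 0.00221). Among all tested genes 6.41% fell and 7.2% rose by the adjusted p. Tnni3 and Myl2 kept an adjusted p under 0.05 in all 8 fits without one HCN4F library, Myh6 in 5, and Tnnt2 and Actc1 in 3 each. In WT hearts Tnnt2 and Tnni3 fell by the adjusted p, which 4.54% of all tested genes passed in either direction. No cardiomyocyte marker was called in either response. The part of the cell types in the results was not tested.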

How the data were processed

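Left ventricular polyadenylated RNA was sequenced on an Illumina platform. Raw read counts for each gene and library, not normalized, were deposited by the authors. Their processing notes name the build GRCm38, and the aligner, counting program and use of strand are not given in the sources used here. Samples were grouped by their labels, and 2 further columns of per-sample counts that match no sample were not used. The filterByExpr function of edgeR, applied by group, kept 15292 of 49315 genes. CPM values are TMM-scaled, without a pseudocount. All groups entered 1 edgeR 4.0.16 quasi-likelihood model (robust, R 4.3.3, limma 3.58.1) and p-values were adjusted by Benjamini-Hochberg over every gene tested. A call required both an adjusted p under 0.05 and a change of more than 1 on the log2 scale, and for the interaction at the adjusted p alone. Standard errors and 95% confidence intervals are those of this model. Replicates differed by more than counting noise. Gene positions and lengths came from GENCODE release 21, in which 99.8% of tested genes were found.

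The members and lists were chosen with earlier results of these data known, so that they are no independent evidence. Named were all 10 members and, of the further lists, called genes, and besides them Adamtsl5, Mmp2, Ctsk and the marker genes that were chosen after their values were seen. Alternatives were DESeq2 1.42.0 on all groups or on the 2 compared, edgeR on the 2 compared, size factors from DESeq2, no filter, a mean CPM of at least 1, no robust estimation, the replicate number as a block, the adjusted p alone, glmTreat and leaving out each library. The median over members, the second gene length, the marker sum without Acta2, the further lists without each HCN4F library and the places by library were added after seeing the data. The steps were tested on simulated data with planted changes larger than those of the members in the fit of all libraries. The simulation therefore does not cover changes near the threshold. Plots used matplotlib 3.10.9 (Python 3.11.15).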

Additional observations from a re-analysis of the deposited data

Results flagged for a closer look

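The level of Mfap2 in HCN4F-Sham replicate 2 was 1.87 CPM, while the other 3 libraries of the group lay between 1.20 and 1.30 CPM. The gap to the nearest library was 0.86 of the range of the group, above the 95% critical value of Dixon's test for 4 libraries. Of 30 sets of 4 libraries examined (10 genes in 3 groups), this was the only one, and chance gives about 1 in 20. Without this library the log2 fold change of Mfap2 between HCN4F-TAC and HCN4F-Sham was 0.90 instead of 0.74. No elastic fiber gene showed an interaction of genotype and surgery with an adjusted p under 0.05 in edgeR.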

How the results depend on the processing

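In HCN4F-TAC against HCN4F-Sham the number of called elastic fiber genes was 3. It was 7 by the adjusted p alone, 0 with glmTreat against a log2 fold change of 1, 2 (Mfap4 and Mfap5) with edgeR on the compared groups and again 3 without the filter, with Fbn1 in place of Eln, and it ranged from 2 to 4 when single libraries were left out. In HCN4F-TAC against WT-TAC DESeq2 on all groups called 1 gene (Mfap5) in place of 0, and leaving out libraries gave 0 to 2, with 2 (Mfap4 and Mfap5) without HCN4F-TAC replicate 3. The interaction gave 0 to 1, with Mfap4 without the same library. In the WT response and between the Sham groups the number stayed at 0 in every alternative run. The log2 fold change of Eln in WT hearts was -0.0027 when genes needed a mean CPM of 1. Over the fits that left out one library, signs changed for Eln (-0.24 to 0.22), Mfap2 (-0.51 to 0.11) and Emilin1 (-0.0040 to 0.13) in the WT response, for Fbln1 (-0.16 to 0.072) and Efemp2 (-0.027 to 0.19) in the HCN4F response, and for Fbn1 (-0.19 to 0.054), Mfap4 (-0.041 to 0.24), Fbln1 (-0.17 to 0.0053) and Fbln5 (-0.012 to 0.17) between the Sham groups. The cause was not tested. With the replicate block the HCN4F response had 3 called genes and the other comparisons 0, as without it. The numbers do not pair the libraries: over 18 pairs of the same number the correlation of deviations was -0.12 to 0.16, and 5 of 14 libraries correlated best with their own number. The 2 WT-TAC libraries limit every comparison with that group. The shares of all genes that were called in the alternative fits are not given here. Nor are the shares that passed in the fits without a library, so counts from those fits stand without a background.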
